A study of Solea senegalensis with 30 samples.

Results

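The blood plasma miRNAs of 6 male and 5 female Senegalese sole (*Solea senegalensis*) were compared 2 d after a kisspeptin injection. These 11 fish were taken from the sample labels, as every fish labelled as kisspeptin treated, sampled at 2 d and male or female, of 30 fish in the whole series. All were adult breeders born in captivity that received a single intramuscular dose of 250 µg/kg of KISS2-10, the active decapeptide of kisspeptin 2. The 4 control males and 5 control females of the same day were injected with phosphate buffered saline and give the background of the same sex comparison. One tank was sampled at 2 d in each treatment. Males and females of a treatment therefore shared a tank, while treatment and tank cannot be told apart. The age of the fish and the sequencing run of each library were not given in the sources used here. Fish are named here by sex and a number from 1 that follows the order of the records and has no other meaning.

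Kisspeptin is a neuropeptide that acts at the top of the brain, pituitary and gonad axis and raises the release of gonadotropins. miRNAs are short RNAs that bind messenger RNAs through their seed, the bases 2 to 8 from the 5′ end, and reduce their translation or stability. Those in plasma are released by many tissues, and several are known mainly from one of them: miR-202 from the gonads of fish and other vertebrates, miR-122 from the liver, miR-1 and miR-206 from striated muscle, miR-451 and miR-144 from red blood cells and miR-126 from endothelium. Each distinct read sequence was counted as an isomiR, a variant of a miRNA that differs in its ends or length, and isomiR counts were summed here to the miRNA name. In plasma, fewer releasing cells and less RNA released per cell cannot be told apart.

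The sequences below, as the counts list them (DNA letters, seed in capitals), are those on which the results turn. The first 4 are forms of miR-202, the only miRNA with both arms among the 10 smallest p, and show that 1 extra base at the 5′ end moves the seed.
miR-202-5p, 21 nt, 51.3% of its counts: tTCCTATGcatatacctcttt
miR-202-5p, 22 nt, 1 base longer at the 5′ end, 13.0%: tTTCCTATgcatatacctcttt
miR-202-5p, 23 nt, 10.9%: tTCCTATGcatatacctctttga
miR-202-3p, 21 nt, 20% of its counts: aAAGAGGCatagggcatggga
The next 5 are leading forms of abundant miRNAs whose listing differed between fish, together with miR-206-3p, which has the seed of miR-1a-3p.
miR-122-5p, 21 nt: tGGAGTGTgacaatggtgttt
miR-122-5p, 22 nt: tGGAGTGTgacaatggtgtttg
miR-1a-3p, 22 nt: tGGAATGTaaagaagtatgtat
miR-206-3p, 22 nt: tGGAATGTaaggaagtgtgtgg
miR-21, 22 nt: tAGCTTATcagactggtgttgg
The last 3 share a seed. They are the leading forms of miR-16b and miR-15a and a miR-16b form shorter by 2 bases at its 3′ end.
miR-16b, 22 nt: tAGCAGCAcgtaaatattggag
miR-16b, 20 nt: tAGCAGCAcgtaaatattgg
miR-15a, 21 nt: tAGCAGCAcggaatggtttgt

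Between 25468 and 157656 reads were counted per fish in the 11 kisspeptin libraries, over 172 miRNA names and 2129 isomiRs. Relative levels are in cpm, counts scaled to a common library size, and a limit of 3 counts stood at 118 cpm in the shallowest library. The 10 names with the highest mean level held 78.4% of all counts of these fish. Among the 25 pairs of kisspeptin fish of the same sex the chi-square per degree of freedom of isomiR counts was from 52.2 to 208. No pair thus had the same counts. The uneven listing of isomiRs described below adds to these values, so they cannot exclude a repeated library of a fish. Nothing in the labels speaks of repeated libraries of a fish, and each library was taken as 1 fish. Levels are given as log2 cpm after scaling of the library sizes, on which a count of 0 stands at 3.75.

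No difference between the sexes was detected in general measures of the libraries. Between 75 and 104 names were counted per male and between 84 and 104 per female, with means of 89 ± 12.5 (SD, n = 6) and 90.6 ± 8.02 (n = 5). Reads of 21 and 22 nt, the usual length of miRNAs, made up 77.5% ± 4.06 of the counts in males and 77.7% ± 4.69 in females. Compared were the total, names counted, share of 21 and 22 nt and read length. The share of the 10 names with the most counts over the 11 fish was compared too. The means of all these measures gave p between 0.829 and 0.957 in two-sided exact permutation tests over all assignments of the 11 fish. There the smallest p possible was 0.0043. Sex took 12.3% of the variation between the 11 fish over all 123 miRNAs tested (pseudo-F = 1.27, one-sided exact permutation p = 0.0303). Any split of the fish into 6 and 5 takes a part of the variation, so this share is to be read with its p. That p was between 0.0714 and 0.515 with a prior count of 10 in place of 1, with no scaling, with names summed by number, with the names above 1 cpm in all 20 fish and without female 5 and male 6. It rose above 0.05 without any 1 female or without male 6, with values from 0.0794 to 0.129.

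No miRNA passed an adjusted p of 0.05 between kisspeptin males and females. Of the 123 names with at least 1 cpm in at least 4 of the 20 fish of 2 d, 0% passed in edgeR's quasi-likelihood test, and the smallest adjusted p was 0.492. limma-voom and DESeq2 also called 0 names. At an unadjusted p under 0.05 there were 10 names in edgeR (8.13% of those tested), 12 in limma-voom and 6 in DESeq2. Of the 10, 6 were higher in males (4.88%) and 4 were lower in males (3.25%). Among all 123 names, 67 had a positive log2 fold change of males over females and 56 a negative one, with a median of 0.08.

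**Figure D1:**
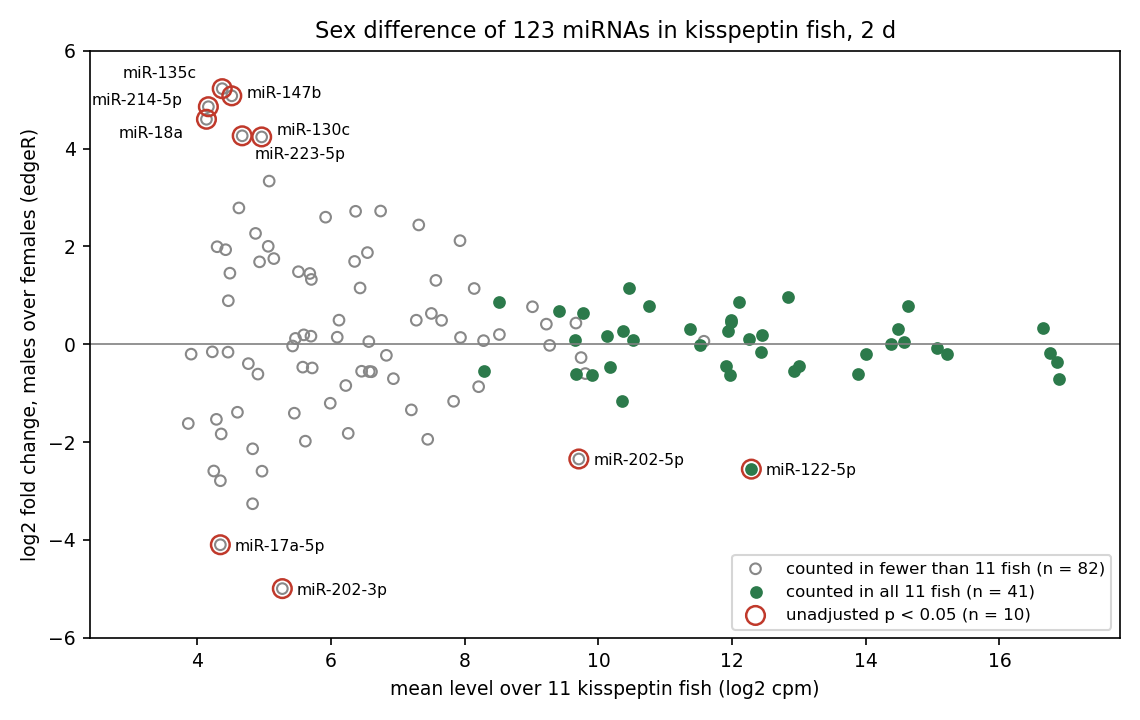
Log2 fold change of males over females in edgeR (vertical axis) against the mean level over the 11 kisspeptin fish in log2 cpm (horizontal axis), for 123 miRNAs. Filled points are the 41 names counted in all 11 fish, open points the other 82, and red rings the 10 names with an unadjusted p under 0.05, of which only miR-122-5p was counted in every fish.

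The precision depended on the level. The 41 names counted in all 11 fish had a median absolute log2 fold change of 0.44 with a median standard error of 0.69, and the other 82 had medians of 1.33 and 1.54. Of 24 names with an absolute log2 fold change above 2, only miR-122-5p was counted in every fish. The 95% interval lay within a 2-fold change in either direction for 4 names, miR-146a, miR-16b, miR-126a-3p and miR-15a, and within a 4-fold change for 18.

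Both arms of miR-202 had lower levels in kisspeptin males than in kisspeptin females, although neither passed the adjusted threshold. miR-202 is abundant in the ovary and testis of teleosts and is needed for normal egg production in medaka. The 5p arm had 8, 0, 25, 55, 69 and 92 counts in males 1 to 6, and 80, 530, 247, 156 and 75 counts in females 1 to 5. In log2 cpm after scaling every male (3.75 to 10.7) was below every female (10.8 to 12.5), and it was the only name whose sexes did not overlap, 0.813% of those tested. This separation depended on the scaling factors. Without them, a choice made after seeing the data, miR-202-5p took up to 0.195% of the counts in males and from 0.168% in females, male 5 lay above 2 females, and 0 names (0%) did not overlap. The means were 8.24 ± 2.44 (SD, n = 6) in males and 11.47 ± 0.62 (n = 5) in females, a difference of -3.24 (exact permutation p = 0.00866, two-sided, and 0.621 adjusted over the 123 names), and without scaling the difference was -3.09 (exact permutation p = 0.0152). edgeR, which weighs fish by their counts, gave miR-202-5p a log2 fold change of -2.34 (SE 0.93, unadjusted p = 0.0194, adjusted p = 0.492).

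The 3p arm, the less abundant one in these fish, had 1 count in males and 59 in females. Male 5 held the single count, and females 1 to 5 had 6, 22, 25, 6 and 0. Its forms differed between females. The 24 nt form, 41.7% of the miR-202-3p counts and the leading one, was counted only in female 3 (25) among kisspeptin fish. The 21 nt form shown above was counted only in females 1 and 2 of them (5 and 7). Pooled over the fish of each sex, the level of miR-202-3p in females was 70.2 times that in males, with a 95% counting interval from 12.1 to 2818 that leaves out the spread between fish. Female 5, the smallest library, had none. In edgeR miR-202-3p had the smallest p of all names, with a log2 fold change of -4.99 (SE 1.67, unadjusted p = 0.00699, adjusted p = 0.492).

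The read sequences of miR-202 also bear on its count. The 21 nt form of the 5p arm was found in all 5 females, with 57, 235, 134, 74 and 41 counts, and in 5 of 6 males, with 8, 15, 41, 47 and 34 counts in males 1 and 3 to 6. The form with the shifted seed was found in 5 females (3 to 83 counts) and 4 males (3 to 14 counts). The 23 nt form was found in 5 females (5 to 51 counts) and 3 males (5 to 19 counts). The lower sum in males was therefore seen in several forms. The leading form was counted in every fish with any count of miR-202-5p, and male 2 had no count of the name.

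In control fish miR-202-5p was also lower in males. Control males had 73, 105, 46 and 13 counts and control females 1364, 170, 269, 81 and 1153, and here the sexes overlapped, from 8.11 to 10.6 and from 10.4 to 14.0 log2 cpm. The log2 fold change was -2.50 (SE 1.08, unadjusted p = 0.0309, adjusted p = 0.346). The difference between the kisspeptin and control contrasts of miR-202-5p was 0.16 (SE 1.36, unadjusted p = 0.909), with a standard error too large to tell whether they are alike. The 3p arm had a log2 fold change of -2.24 in controls (SE 1.70, unadjusted p = 0.201), with 7 counts in males and 109 in females, and a difference between contrasts of -2.75 (SE 2.02, unadjusted p = 0.187).

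**Figure D2:**
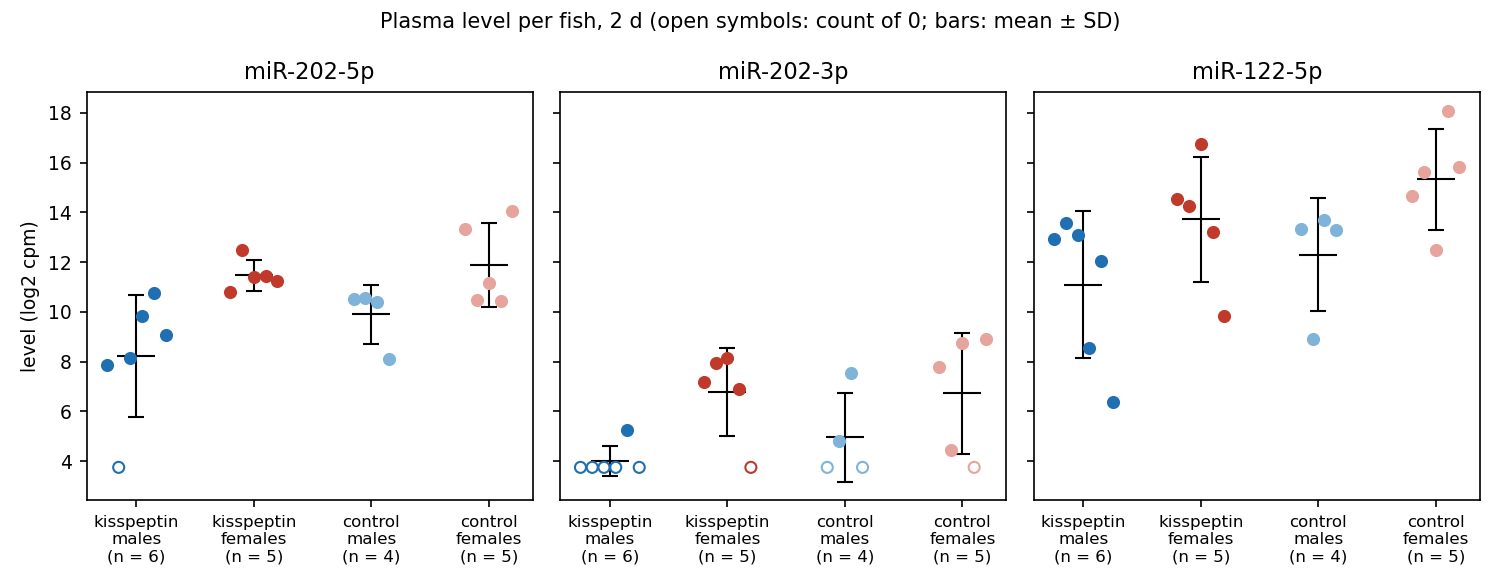
Level of miR-202-5p, miR-202-3p and miR-122-5p in each fish (log2 cpm, vertical axis) in kisspeptin males (n = 6), kisspeptin females (n = 5), control males (n = 4) and control females (n = 5), with mean ± SD as bars and open symbols for a count of 0. The kisspeptin sexes do not overlap for miR-202-5p on this scaled level, though they do without scaling factors (up to 0.195% of the counts in males, from 0.168% in females), and overlap for miR-202-3p and miR-122-5p.

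miR-122-5p, the most abundant miRNA of the vertebrate liver, was the other name of high level with a small p. It had 283, 728, 816, 22, 173 and 12 counts in males 1 to 6 and 1074, 1831, 10108, 535 and 28 in females 1 to 5. Females 1 to 4 were at 13.2 to 16.7 log2 cpm and males 1, 2, 3 and 5 at 12.1 to 13.6, so the sexes overlapped, and male 4, male 6 and female 5 were below 10. The log2 fold change was -2.55 (SE 1.14, unadjusted p = 0.036, adjusted p = 0.492), and leaving out female 3 alone brought it to -1.27. By exact permutation of the log2 cpm the p of miR-122-5p was 0.141. The control fish gave -3.30 (SE 1.38, unadjusted p = 0.0259, adjusted p = 0.326), and the difference between contrasts was 0.75 (SE 1.65, unadjusted p = 0.655).

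The listing of miR-122-5p forms was uneven. The 21 nt form was counted in males 2 and 3 (461 and 734) and in female 3 (10016), and stood at 0 in the other 8 fish. The 22 nt form was counted in males 1, 2 and 5 and females 1, 2 and 4 (169 to 1628) and stood at 0 in the other 5. Male 4, male 6 and female 5, the 3 lowest fish, had 0 of both forms, which differ by 1 base at the 3′ end. The part of this listing in the sex difference was not tested. The other arm, miR-122-3p, had 1 count in males and 10 in females, with a log2 fold change of -2.59 (SE 1.52, unadjusted p = 0.106).

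The other 7 names with an unadjusted p under 0.05 were sparse. miR-17a-5p, of the miR-17 family that promotes cell proliferation in mammals, had 0 counts in the 6 males and 2 counts in each of females 1, 4 and 5 (log2 fold change -4.10, SE 1.39, unadjusted p = 0.0114). Pooled over the fish of a sex, its level in females was 2.38 times a limit of 3 counts over the males. With 1 of these 3 females left out it was 1.71 to 1.90 times that limit. Such ratios to a limit take the observed counts as exact and leave out the spread between fish, so they are no lower bounds. miR-147b was counted in males 3, 4 and 6 (18, 7 and 3) and in no female (unadjusted p = 0.0143). Its pooled level in males was 7.85 times a limit of 3 counts over the females. Male 3 held 18 of these 28 counts, and without it the ratio was 3.30. These were the only tested names counted in 3 or more fish of one sex and in none of the other.

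miR-130c had 22, 2, 5 and 17 counts in males 2, 3, 4 and 6 and 1 count in female 4 (unadjusted p = 0.0226). Its pooled ratio of females to males was 0.026 with a counting interval from 0.00064 to 0.151. miR-223-5p, the minor arm of a myeloid miRNA, had 1, 35 and 14 counts in males 1, 3 and 6 and 1 in female 2 (unadjusted p = 0.0296). Its 5 most abundant forms were 15 to 18 nt long and were counted in males 3 and 6 only. The 16 nt leading form, 51.0% of the counts, was counted in male 3 alone. The read of female 2 was a 19 nt form with another 5′ start and seed, counted in no male. With a log2 fold change of 0 in control fish, the name passed the filter only through these kisspeptin fish. miR-135c rested on males 3 and 4 (29 and 3 counts), miR-214-5p on male 5 (12 counts) and miR-18a on male 2 (14 counts), with 0 in the other males and in all females. Their pooled levels in males were 8.97, 3.36 and 3.92 times a limit of 3 counts over the females, with unadjusted p of 0.0278, 0.0348 and 0.0445. In the exact permutation test of levels the p of miR-135c was 0.455. For miR-214-5p and miR-18a, each counted in 1 male only, that test could give no other p than its largest. The values of these names describe 1 or 2 fish. Without male 3 there were 3 counts of miR-135c left, and without male 5 or male 2 there were 0 of miR-214-5p or miR-18a. None of these 3 was then above that limit.

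Of these 10 names, 3 also had an unadjusted p under 0.05 in control fish, where 13 names did (10.6%). miR-202-5p and miR-122-5p were lower in males in both treatments, and miR-135c went in opposite directions. In controls miR-135c had 0 counts in the 4 males and 80, 7, 4, 0 and 21 in females (log2 fold change -6.92, SE 2.64, unadjusted p = 0.02). The test of sex by treatment called no name in edgeR (7 at an unadjusted p under 0.05, 5.69%) and 1 each in limma-voom (adjusted p = 0.0483) and DESeq2 (adjusted p = 0.0367), miR-199a-5p. In kisspeptin fish miR-199a-5p had 2, 5, 12, 0, 14 and 53 counts in males and 58, 116, 11, 17 and 1 in females (log2 fold change -1.94, SE 1.19, unadjusted p = 0.118), and the sexes overlapped. Control males had 83, 167, 57 and 131 counts of miR-199a-5p and control females 9, 0, 23, 0 and 22 (4.14, SE 1.41, unadjusted p = 0.0079, adjusted p = 0.326). The edgeR difference between the contrasts of miR-199a-5p was -6.09 (SE 1.83, unadjusted p = 0.00326, adjusted p = 0.2). The smallest p of that test was that of miR-135c (unadjusted p = 0.003, adjusted p = 0.2). The control contrast called 0 names in edgeR and DESeq2 and 1 in limma-voom, again miR-199a-5p (adjusted p = 0.0178), and 6 names did not overlap between control sexes (4.88%). Across the 123 names the log2 fold changes of kisspeptin and control fish had a Pearson correlation of 0.013. This is a description across genes, which are not independent, of 2 comparisons that share no fish.

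**Figure D3:**
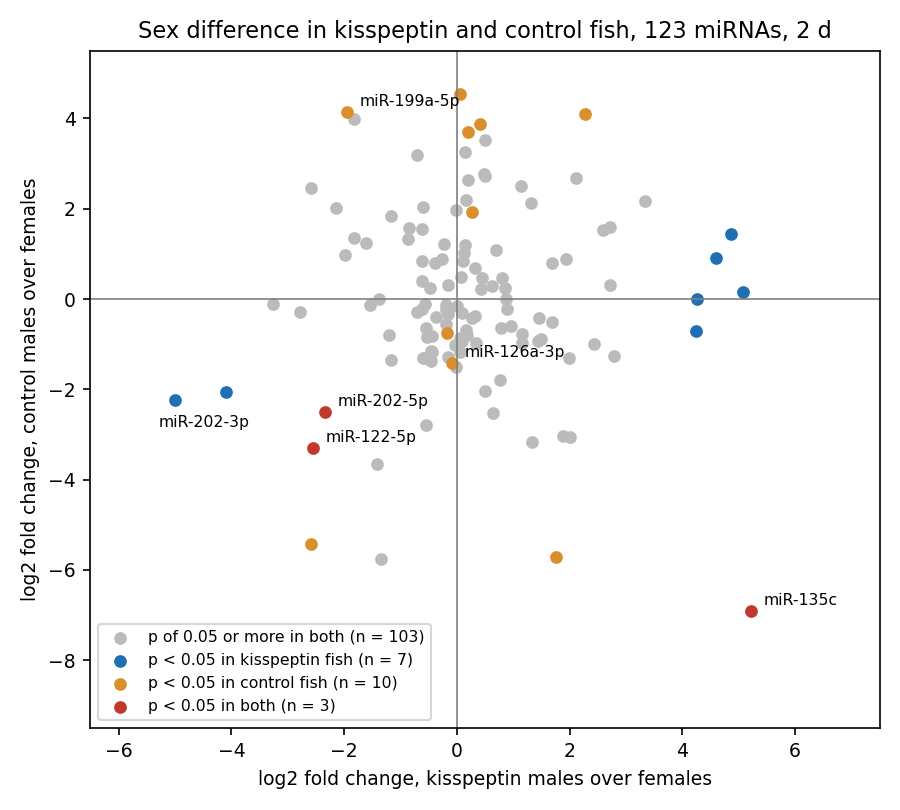
Log2 fold change of males over females in kisspeptin fish (horizontal axis) and in control fish (vertical axis) for 123 miRNAs, coloured by unadjusted p. miR-202-5p and miR-122-5p are negative in both, miR-135c is positive in kisspeptin fish and negative in controls, and the points as a whole show no trend.

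Among the 123 names tested, the 10 with the highest level were miR-21, miR-22a, miR-16b, miR-451, miR-146a, miR-126a-3p, miR-1a-3p, miR-3963, miR-144-5p and miR-15a. The miRNA that the paper reports as most highly expressed, let-7e-5p, is not among the names tested here. None of the 172 names in the counts belongs to the let-7 family, so the shares and rankings given here leave that family out. For all 10 the 95% interval of the sex difference included 0. After scaling, miR-16b and miR-15a, which share a seed and are abundant in blood cells, had the smallest SD of the 10 among males. This ranking rests on the scaling. In unscaled shares of the counts of males, miR-15a ran from 1.44% to 4.53%, miR-16b from 7.37% to 17.4% and miR-146a from 2.76% to 5.44%. The level of miR-16b was 16.68 ± 0.17 in males and 16.86 ± 0.09 in females, and its log2 fold change was -0.17 (95% interval -0.82 to 0.48). That of miR-15a was 14.37 ± 0.33 and 14.39 ± 0.19, with a log2 fold change of 0.0026 (-0.72 to 0.73). miR-22a took from 5.67% to 18.5% of the counts in males and from 9.46% to 16.9% in females (log2 fold change -0.36, interval -1.02 to 0.30).

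miR-146a, an inhibitor of inflammatory signalling, had a log2 fold change of -0.19 (interval -0.89 to 0.50). miR-126a-3p, the endothelial miRNA, had -0.08 (-0.98 to 0.81). For miR-16b, miR-15a, miR-146a, miR-126a-3p, miR-451 and miR-3963 the sign changed with the settings or with the fish left out. The red cell miRNAs, miR-451 and miR-144-5p, had 0.33 (-1.14 to 1.80) and 0.31 (-0.64 to 1.26). miR-451 varied widely among fish of the same sex, from 1762 to 24084 counts in males and from 1344 to 31342 in females. Its listing was uneven too. The 21 nt form, 69.0% of the miR-451 counts, stood at 0 in males 2, 3 and 5 and in females 1 and 5. In the other fish it was counted 4365 to 21873 times. The part of this listing in the spread of miR-451 was not tested. miR-3963, whose reads are 17 and 18 nt long in its leading forms, had 0.05 (-1.09 to 1.19).

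**Figure D4:**
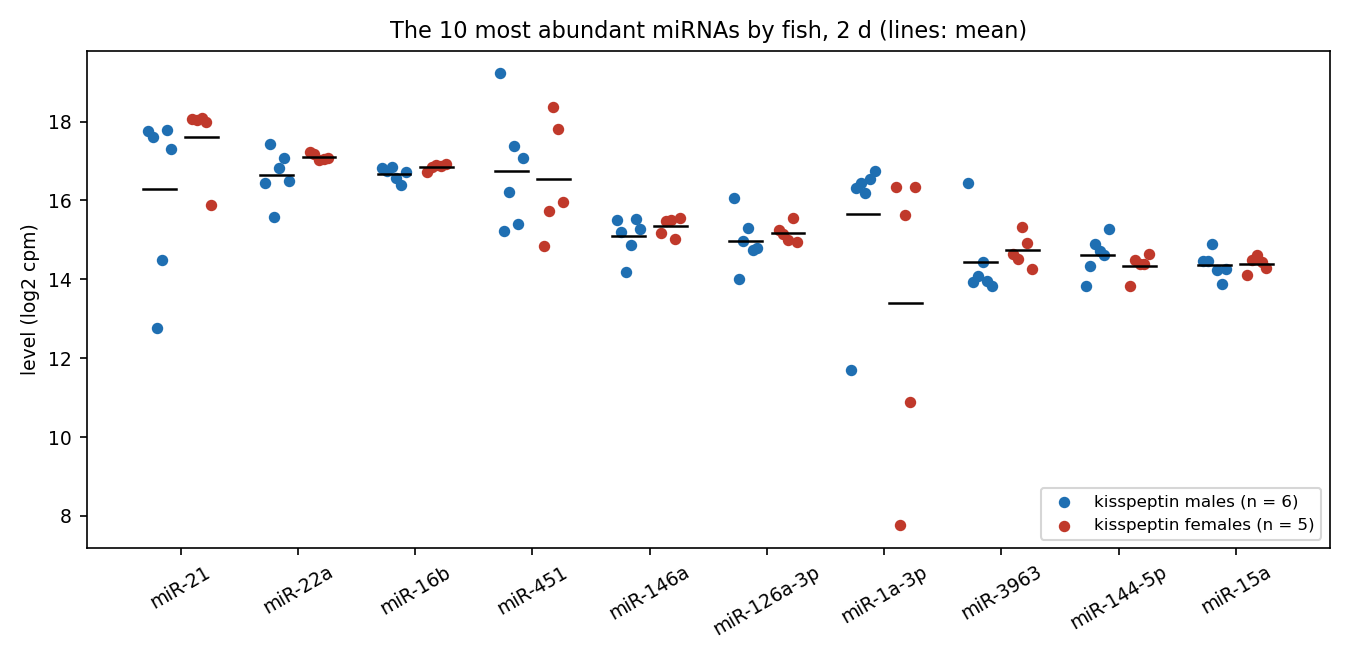
Level in log2 cpm (vertical axis) of the 10 most abundant miRNAs tested in each kisspeptin male (blue, n = 6) and female (red, n = 5), with means as lines. On this scaled level miR-16b, miR-146a and miR-15a are tight in both sexes. miR-21, miR-451 and miR-1a-3p spread over more than 2 log2 units among fish of the same sex, and miR-3963 does so in males (13.83 to 16.45). The leading forms of miR-21, miR-451 and miR-1a-3p stood at 0 in some fish, while that of miR-3963 was counted in all 11.

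miR-21 was high in 8 fish and low in 3. Males 1 to 6 had 8184, 11918, 653, 1403, 9084 and 27836 counts and females 1 to 5 had 12388, 25030, 25760, 14593 and 1859. The 22 nt form, 78.8% of all miR-21 counts, stood at 0 in male 3, male 4 and female 5, the same 3 fish, and was counted 6300 to 24961 times in the other 8. The log2 fold change was -0.71 (SE 0.66, unadjusted p = 0.295). Without male 3 it was -0.20.

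miR-1a-3p, the muscle miRNA, showed the same kind of split. Males had 122, 4861, 8368, 4541, 3844 and 19024 counts and females 3763, 19, 4670, 106 and 2566. Male 1, female 2 and female 4 were the low ones. In these 3 fish the 22 nt form, 92.7% of the miR-1a-3p counts, stood at 0, and in the other 8 it was counted 2520 to 16354 times. The log2 fold change was 0.79 (SE 1.36, unadjusted p = 0.567, interval -2.04 to 3.62). The 22 nt form of miR-1a-3p stood at 0 in all 9 control fish, and control males had 153, 410, 7 and 15 counts and control females 61, 102, 1, 426 and 0 of the name.

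miR-199a-3p, a miRNA of connective tissue cells, had 6, 21, 20, 276, 360 and 245 counts in males and 133, 231, 169, 112 and 91 in females. The females lay within 10.8 to 11.5 log2 cpm while the males ran from 7.47 to 13.1, with means of 11.23 ± 0.31 (SD) and 9.93 ± 2.36. edgeR gave a log2 fold change of 0.09 (SE 1.07, unadjusted p = 0.934). Its leading form was counted in 2 males and 2 females, 4 of the 8 fish with at least 50 counts.

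miR-128, a miRNA of neurons, was counted in all 5 females (140, 29, 18, 22 and 8) and in 2 males (188 in male 4 and 1 in male 5). In log2 cpm 5 males were below every female and male 4 above every female. The 21 nt form, 80.8% of the miR-128 counts, was counted only in male 4 (188) and female 1 (140) among kisspeptin fish. The part of this listing in the pattern was not tested. The log2 fold change was -0.70 (SE 1.79, unadjusted p = 0.698) and became -7.15 without male 4 (adjusted p = 0.285, and up to 1 over the other settings).

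Lists of miRNAs known from a tissue or cell type gave few small p. Of the list for gonad 2 names passed the filter, both arms of miR-202, and both were lower in males at an unadjusted p under 0.05, with a median log2 fold change of -3.67 beside 0.08 over all names tested. Of the list for liver both arms of miR-122 passed and both were negative, 1 of them at that p, with a median of -2.57. Of 7 leukocyte names 1 was higher in males (miR-223-5p, median of the list 0.17) and of 4 mesenchymal names 1 was higher (miR-214-5p, median -0.54). No name did so among 4 of muscle (median 0.11), 8 of erythrocytes (0.14), 10 of gut and epithelium (-0.18), 8 of endothelium and vessel wall (0.57) and 2 of the nervous and endocrine system (-0.13). None passed the adjusted threshold. Over all 123 names the share at that p was 4.88% higher and 3.25% lower in males, beside which 1 of 7 and 1 of 4 is no result about those lists. The names tested from the gonad and liver lists were the 2 arms of 1 miRNA each, already described above. Their counts and medians are therefore no result about a list either.

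Beside the abundant members described above, such as miR-1a-3p, miR-146a and miR-126a-3p, the lists held miR-206-3p in muscle (log2 fold change -0.62, SE 0.94), miR-192 (-0.44, SE 0.55) and miR-203a (0.26, SE 0.66) in gut and epithelium, and miR-223-3p in leukocytes (-0.16, SE 1.02). They also held miR-143-3p in the vessel wall (-0.02, SE 1.28), miR-214-3p in mesenchyme (-1.17, SE 1.02) and miR-375 in endocrine cells (0.43, SE 1.14). These 7 had unadjusted p between 0.268 and 0.987. Most of them were unevenly listed. Of the fish with at least 50 counts, the leading form was found in 3 of 10 for miR-206-3p and 3 of 8 for miR-143-3p. It was found in 5 of 9 for miR-214-3p, 6 of 9 for miR-223-3p and 5 of 7 for miR-375. For miR-203a it was found in 8 of 9 and for miR-192 in 11 of 11. The summed level of the muscle names ran from 7719 to 152573 cpm in males and from 3658 to 118491 in females. That of the erythrocyte names ran from 203525 to 494901 and from 165259 to 382803, a wider spread within each sex than between their medians of 363591 and 292642. These sums include miR-1a-3p and miR-451, whose leading forms stood at 0 in some fish. The part of uneven listing in these ranges was not tested, nor was the part of these RNAs in the differences above.

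Among isomiRs, 684 were tested and edgeR called none between kisspeptin males and females. At an unadjusted p under 0.05 there were 104 (15.2%), 73 higher and 31 lower in males, and the smallest adjusted p was 0.297. limma-voom also called 0, and DESeq2 called 7 of 684, of which 6 were higher and 1 was lower in males. With no filter on low counts edgeR called 24 of 1857, 14 higher and 10 lower. In control fish edgeR called 0, with 77 at an unadjusted p under 0.05 (11.3%). There DESeq2 called 15 of 684 and edgeR with no filter 30 of 1857, so such calls were not particular to kisspeptin fish.

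The 10 isomiRs with the smallest p were each at 0 in every fish of one sex and counted in 1 to 4 fish of the other. A 23 nt form of miR-222a-3p, a miRNA of the vessel wall, had 89, 194, 93 and 152 counts in males 1 to 4 and 0 in the other 7 fish (unadjusted p = 0.00416, adjusted p = 0.297). It was called by DESeq2 (adjusted p = 0.042) and with no filter (adjusted p = 0.00094). A 24 nt form of miR-30c had 137, 94 and 394 counts in males 1, 5 and 6 (unadjusted p = 0.00873, and called with no filter, adjusted p = 0.00526), and a 19 nt form of miR-210-5p had 5, 10, 5 and 7 in females 1, 2, 4 and 5 (unadjusted p = 0.0073). The names themselves were counted in fish where these forms were not, for example miR-222a-3p with 81 to 131 counts in females 1 to 4.

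The 20 nt form of miR-16b shown above was the other case. It had 293, 417 and 201 counts in females 1, 4 and 5 under miR-16b and 0 in the 6 males (log2 fold change -11.09, SE 3.51, unadjusted p = 0.00774, adjusted p = 0.297). DESeq2 and the fit with no filter called it (adjusted p = 1.58e-08 and 6.35e-06). The same read is also listed under miR-16a, where male 5 had 183 counts and the other 10 fish 0. In no fish of the 20 was it counted under both names. When the counts of a read were summed over names, a choice made after seeing the data, its log2 fold change was -2.25 (adjusted p = 0.912), and edgeR called 0 of 692 reads.

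The share of the leading isomiR was compared for the 16 names with at least 100 counts in every kisspeptin fish, and none differed at an adjusted p under 0.05 (exact permutation, two-sided). The smallest p was that of miR-15a, whose 21 nt form made up 58.9% ± 5.32 of its counts in males and 49.3% ± 6.22 in females (unadjusted p = 0.0216, adjusted p = 0.346). For 12 of the 16 names the leading form was counted in all 11 fish. For miR-30d it stood at 0 in 8 fish, for miR-451 in 5, for miR-125a in 5 and for miR-21 in 3, although the names had at least 100 counts there. Over all names, 40 of the 76 with 50 counts in at least 1 fish held their leading form in every such fish. Restricted to these 40, a choice made after seeing the data, edgeR again called 0 names, with 1 at an unadjusted p under 0.05. Sex then took 16.4% of the variation (one-sided exact permutation p = 0.026). Some of the 40 reached 50 counts in few fish, such as miR-128 in 2 and miR-141 in 1. This subset therefore does not remove uneven listing. No precursor had at least 10 counts of both arms in every kisspeptin fish, so the ratio of the arms was not tested.

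**Figure D5:**
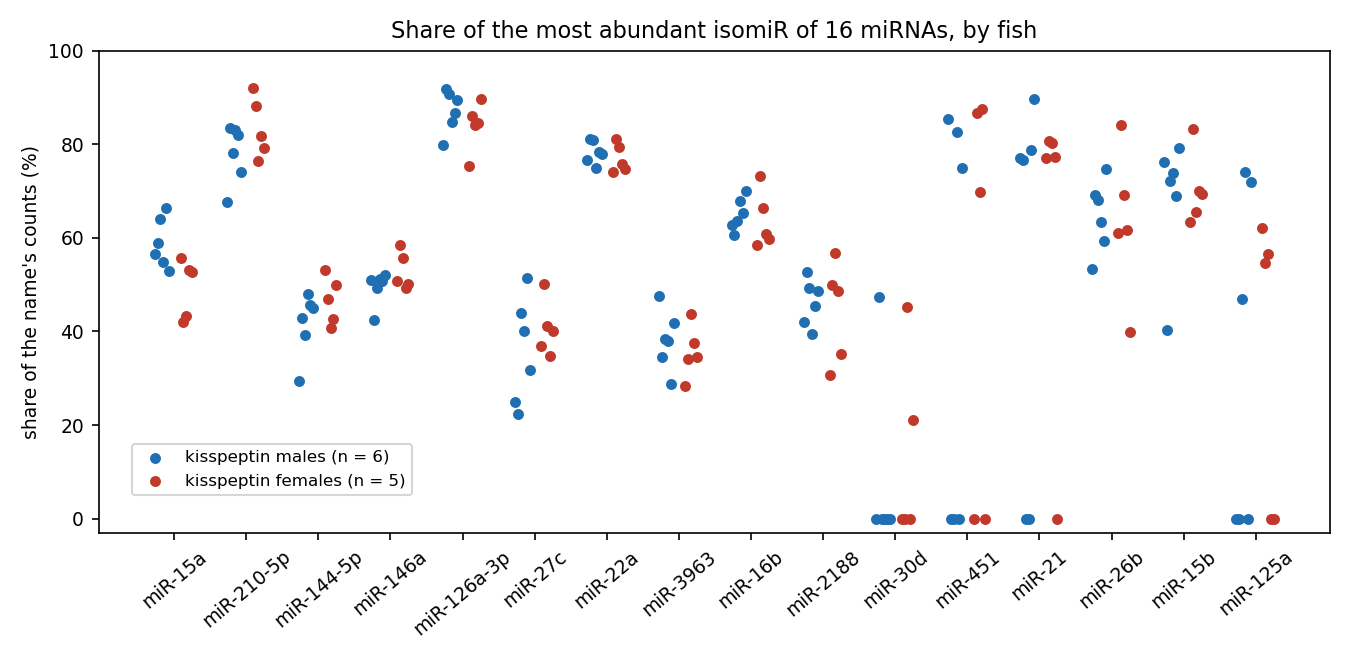
Share of the most abundant isomiR in the counts of its miRNA (percent, vertical axis) for 16 names in each kisspeptin male (blue, n = 6) and female (red, n = 5). Most names lie in one band in both sexes, with 58.9% in males and 49.3% in females for miR-15a, while miR-30d, miR-451, miR-21 and miR-125a have fish of both sexes at 0.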

How the data were processed

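Small RNA of blood plasma was sequenced in 30 fish, of which the 20 of 2 d were analysed here. The authors trimmed adapters and 4 random bases from the read ends, mapped the reads with bowtie2 (k = 10) to hairpins of all species in miRBase 21 and deposited unnormalized whole-number counts per isomiR. The submitters' processing notes name cutadapt 2.1, Bowtie2 2.4.1 and HTSeq 0.6.0. No genome position was analysed here. IsomiR counts were summed to names.

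Males and females were compared with edgeR 4.0.16 (R 4.3.3, limma 3.58.1), quasi-likelihood test, TMM scaling and Benjamini-Hochberg adjustment at 0.05, with the 20 fish as 4 groups and names of at least 1 cpm in at least 4 fish. The standard error in edgeR was taken as the absolute log2 fold change over the square root of the quasi-likelihood F. The 95% intervals of log2 fold changes were built from it with a t quantile. Both are approximate, above all for names at 0 in every fish of a group. Log2 cpm used a prior count of 1. Single values were compared with exact permutation tests (Python 3.11.15, numpy 2.4.6, scipy 1.17.1, pandas 2.3.3, matplotlib 3.10.9), and the routines were tested on simulated data. Alternatives were limma-voom, DESeq2 1.42.0, other filters, scalings, sample sets and sums of names, and each fish left out. Pooled ratios between the sexes have 95% intervals that cover counting error only, and ratios to a limit of 3 counts have none. The seed is bases 2 to 8.

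The comparison, the lists and the rule for named miRNAs were chosen with earlier results of these data known. Named are the 10 with the smallest p, the 10 with the highest level and those whose sexes do not overlap. Also named are those counted in 3 or more fish of one sex and none of the other, and members of the tissue lists. Those the study names were included where they were tested, with the 10 isomiRs of smallest p.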

Additional observations from a re-analysis of the deposited data

Results flagged for a closer look

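In 46 sets of values (the 18 of the miRNAs named here that were counted in every fish, and 5 library measures, each in 6 males and 5 females), a fish stood apart from the rest of its sex by Dixon's ratio in 5 sets, where about 1 set in 20, or 2.3 sets, would do so by chance. Female 5 had a miR-21 level of 15.88 log2 cpm against 17.99 to 18.09 in the other females. Male 1 had a miR-1a-3p level of 11.7 log2 cpm against 16.19 to 16.75 in the other males. Both were fish in which the leading form of that miRNA stood at 0. Male 1 had a miR-3963 level of 16.45 log2 cpm against 13.83 to 14.44. In female 4 the 10 highest names held 87.2% of the counts against 74.2% to 77.6% in the other females. In female 5 reads of 21 and 22 nt were 69.4% of the counts against 78.5% to 81.1%.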

How the results depend on the processing

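The count of 0 miRNAs called between kisspeptin males and females was unchanged under every alternative run, each fish left out included. With an exact permutation test per miRNA it was 0, with 6 names at an unadjusted p under 0.05. Called counts moved from 0 in these cases: control miRNAs, 1 with limma-voom, and sex by treatment, 1 with limma-voom and 1 with DESeq2. They also moved for kisspeptin isomiRs, 7 with DESeq2 and 24 with no filter, and for control isomiRs, 5 with limma-voom, 15 with DESeq2, 30 with no filter and 1 with only the groups compared. With a fish left out, the main edgeR fit kept all of these at 0. limma-voom, DESeq2 and the other fits that made calls were not rerun with a fish left out. The leading isomiR shares also stayed at 0 with a fish left out. The cause of the moved counts was not tested.

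The share of variation taken by sex was 10.4% with a prior count of 10 (10.44), 9.53% with 1 cpm in all 20 fish, 11.9% with no scaling, 10.4% (10.41) with names summed by number and 13.8% without female 5 and male 6, with p above 0.05 in each, and 12.7% to 14.3% with 1 fish left out. Differences of library measures ranged over left-out fish from -0.29 to 0.30 (log2 total), -4.6 to 1.75 (names counted), -0.63 to 2.60 points (10 highest names), -2.28 to 1.29 points (21 and 22 nt) and -0.067 to 0.039 nt (length). With medians log2 total gave -0.019.

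miR-202-5p, miR-202-3p and miR-122-5p kept a negative log2 fold change under all alternatives that gave a value. The non-overlap of the sexes for miR-202-5p was lost with no scaling. Of the 10 isomiRs with the smallest p, DESeq2 called 2 and the fit with no filter 6. miR-202-5p ranged from -2.99 to -1.79 over left-out fish, with adjusted p from 0.329 to 0.957 over all alternatives. The sign changed for these: with limma-voom miR-451 (-0.018), miR-3963 (-0.50), miR-15a (-0.033), miR-199a-3p (-1.29), miR-206-3p (1.30), miR-203a (-0.35), miR-375 (-1.48) and miR-143-3p (0.40). With names summed by number it changed for miR-223-5p (-0.14), miR-214-5p (-0.94), miR-199a-3p (-0.15), miR-203a (-0.065), miR-126a-3p (0.029) and miR-143-3p (0.23), and with no scaling for miR-16b (0.014), miR-126a-3p (0.013) and miR-143-3p (0.36). With 10 cpm in 5 fish it changed for miR-16b (0.032), miR-126a-3p (0.065), miR-223-3p (0.035) and miR-143-3p (0.24), and with 1 cpm in all fish for miR-126a-3p (0.012) and miR-143-3p (0.062). With only the groups compared it changed for miR-16b (0.035), miR-126a-3p (0.047) and miR-143-3p (0.24), and with all 30 fish for miR-16b (0.026), miR-126a-3p (0.033) and miR-143-3p (0.21). Without female 5 and male 6 it changed for miR-126a-3p (0.0099), miR-223-3p (0.081) and miR-143-3p (0.21). miR-143-3p gave 0.051 with DESeq2 and 0.17 with no filter. Over left-out fish the ranges that crossed 0 were -0.20 to 0.21 for miR-16b, -0.61 to 0.94 for miR-451, -0.28 to 0.19 for miR-146a, -0.38 to 0.37 for miR-126a-3p, -0.72 to 0.51 for miR-3963, -0.059 to 0.42 for miR-15a, -0.86 to 0.55 for miR-199a-3p, -0.93 to 1.68 for miR-206-3p, -0.92 to 0.37 for miR-223-3p, -0.34 to 1.75 for miR-143-3p, -1.04 to 0.92 for miR-375 and -7.15 to 0.84 for miR-128.

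Fish of one group varied by 131% (common dispersion 1.72), which limits what 6 males and 5 females can show, and in the smallest library (25468 counts) a count of 0 allows up to 118 cpm. The ratio of arms gave no precursor with a minimum of 5 counts either. No paired analysis was possible because the replicate numbers follow the order of the records and pair no fish.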

Other observations

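Outside the names described above, exact permutation of log2 cpm gave an unadjusted p under 0.05 for 4 further miRNAs between the kisspeptin sexes, miR-126a-5p, miR-200a-3p, miR-25-5p and miR-148, none of which had one in edgeR, and the smallest adjusted p over all 123 names was 0.621. They were chosen after their values were seen.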
